A study of Mus musculus with 394 samples.

Results

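Pitx3, En1, En2, Nr4a2, Lmx1a, Lmx1b, Foxa1, Foxa2 and Otx2 encode the homeodomain, nuclear receptor and forkhead transcription factors that specify midbrain dopaminergic (mDA) neurons in the embryo. The rows were taken by gene name from both count tables, and all 9 genes were found among the 55487 genes of the full-length table and the 48526 genes of the UMI table. Foxa1, Foxa2, Lmx1a, Lmx1b and Otx2 act early, in the floor plate progenitors from which mDA neurons arise. En1 and En2 pattern the midbrain and are later needed for survival of mDA neurons, while Nr4a2 (Nurr1) and Pitx3 switch on the genes of dopamine synthesis and transport in postmitotic cells. Several of these factors remain expressed in the adult midbrain, and Otx2 is known there for a subset of neurons of the ventral tegmental area (VTA).

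The series held 18 full-length total RNA libraries and 376 libraries of 3′ tags counted by unique molecular identifiers (UMIs), all of mouse brain. The mice of the midbrain libraries were 10 to 14 months old and of both sexes. Striatal and cortical libraries were used only for levels outside the midbrain, and striatal ones came from mice of P0 to 10 to 14 months. Part of the striatal synaptosome libraries and all cortical ones came from mature adult mice, younger than the midbrain mice. These were DAT-Cre mice with virally expressed EGFP or VGlut1-VENUS mice, and the synaptosomes were sorted by fluorescence or as all small particles. Cre+ mice (DAT IRES-Cre/wt;RiboTag+/-) carried Cre at the dopamine transporter locus and made the ribosomal protein eL22 with an HA tag where that locus had been active, and Cre- littermates (DAT wt/wt;RiboTag+/-) carried the same unrecombined RiboTag allele and made no tagged ribosomes. RNA was taken from the tissue lysate (Input) and from the anti-HA immunoprecipitate (IP) of the substantia nigra pars compacta (SNc), the VTA and the substantia nigra pars reticulata (SNr), and from synaptosomes, the P2 pellet of ventral midbrain homogenate. The SNr was cut conservatively and holds few mDA cell bodies among the dendrites of SNc neurons, and the tag marks only cells in which the DAT promoter has driven Cre. The full-length libraries were all from Cre+ mice, with 3 IPs and 3 Inputs per region. The study describes more replicates of these libraries than were analysed here. The regional UMI libraries were 4 Cre+ and 6 Cre- IPs per region with their Inputs, and the synaptosome IPs were 8 from Cre+ and 6 from Cre- mice.

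Full-length libraries held 4018290 to 11363737 counted reads in IPs and 3059148 to 15762443 in Inputs. Regional UMI libraries were far shallower, with 17831 to 92936 UMIs in IPs and 3606 to 380689 in Inputs, and midbrain synaptosome IPs held 36968 to 111750 UMIs in Cre+ and 16533 to 43351 in Cre- mice. Th, the rate-limiting enzyme of dopamine synthesis, was at 1284 to 3891 CPM (counts scaled to the library total) in full-length IPs and at 19.1 to 220 CPM in Inputs, so the labelled cell type was present in each IP. SNc IP replicate 1 had the highest summed level of 17 fixed dopamine neuron genes, 21170 CPM against 16020 and 17500, and the lowest summed oligodendrocyte level, 2064 CPM against 3303 and 3132.

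On GRCm38 Pitx3 lies at chr19:46135685-46148326, En1 at chr1:120602418-120607992, En2 at chr5:28165694-28172166, Nr4a2 at chr2:57106830-57124003, Lmx1a at chr1:167689237-167848741, Lmx1b at chr2:33560965-33640511, Foxa1 at chr12:57540628-57546916, Foxa2 at chr2:148042877-148046969 and Otx2 at chr14:48657677-48673819. Pitx3 overlaps the last bases of Elovl3 on the opposite strand, and Otx2 overlaps the antisense transcript Otx2os1. These neighbours held 168 and 97 reads over the 18 full-length libraries, and how the counting used strand was not given in the sources used here.

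The 250 bases before the start of 3 members are printed as examples of different behaviour in the IPs: Pitx3 was the most enriched member in the SNc, Foxa1 was about as enriched as Pitx3 in the SNr, and Otx2 was the member lower in the IP than in the Input there. Sequences are from RefSeq on GRCm38.p6, 5′ to 3′ on the gene's strand, and all 3 genes are on the minus strand. Capitals mark the homeodomain core TAATTA, its bicoid-type variant TAATCC and the forkhead core TGTTTAC, each searched on both strands together with AAAGGTCA, the octamer bound by NR4A monomers.
Pitx3 promoter, chr19:46148326-46148575: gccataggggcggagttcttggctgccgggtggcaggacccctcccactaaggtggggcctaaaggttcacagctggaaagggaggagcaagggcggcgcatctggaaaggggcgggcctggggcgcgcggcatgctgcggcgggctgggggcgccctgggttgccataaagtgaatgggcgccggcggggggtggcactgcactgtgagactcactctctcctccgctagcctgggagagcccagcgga
Foxa1 promoter, chr12:57546112-57546361: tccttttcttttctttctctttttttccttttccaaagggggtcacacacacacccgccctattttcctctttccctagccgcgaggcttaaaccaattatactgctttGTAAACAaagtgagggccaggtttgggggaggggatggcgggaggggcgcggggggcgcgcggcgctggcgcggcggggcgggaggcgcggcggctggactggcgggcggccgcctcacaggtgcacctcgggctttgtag
Otx2 promoter, chr14:48665110-48665359: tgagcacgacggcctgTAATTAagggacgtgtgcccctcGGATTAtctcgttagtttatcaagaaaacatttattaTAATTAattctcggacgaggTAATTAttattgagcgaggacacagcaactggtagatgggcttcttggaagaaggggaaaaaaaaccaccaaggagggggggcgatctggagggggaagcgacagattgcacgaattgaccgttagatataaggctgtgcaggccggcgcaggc
The printed Otx2 window held TAATTA at -234, -174 and -154 and the reverse complement of TAATCC at -211, counted from its own transcription start. Otx2 has several listed starts, and the window printed is the one with the most motifs. The window at chr14:48667645-48667894 held TAATTA at -141. Those at chr14:48667509-48667758 and chr14:48662735-48662984 held none of the motifs. The Foxa1 window held TGTTTAC on the other strand at -141, and the Pitx3 window held none of the 4 motifs. Of the 13 promoters listed for 8 members, 2 held TAATTA, both of Otx2, 1 held TAATCC, 1 held TGTTTAC and none held AAAGGTCA. Among all 32851 promoters of that length, 4.84%, 6.25%, 3.17% and 1.34% held them. En2 was not in the promoter table.

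Scaled by gene length, En1 was by far the most abundant member in every region. Its mean IP level was 170 ± 7.07 RPKM (CPM per kilobase of exon, SD, n = 3) in the SNc, 210 ± 2.16 RPKM in the VTA and 134 ± 34.7 RPKM in the SNr. In the SNc Pitx3 came next at 40.3 ± 2.58 RPKM, followed by Nr4a2 at 26.2 ± 16.2, Foxa1 at 24.1 ± 8.07, Foxa2 at 14.5 ± 4.55, Lmx1b at 10.4 ± 6.10, En2 at 7.77 ± 0.692, Lmx1a at 4.44 ± 1.29 and Otx2 at 1.15 ± 0.193 RPKM. Each neighbour from Pitx3 down to En2 overlapped the next in its range over libraries, whereas En1 stood above all others and Lmx1a and Otx2 each stood apart below. In the VTA Nr4a2 was second at 82.6 ± 11.3 RPKM and Foxa1 the third at 49.1 ± 4.84, and neither overlapped a neighbour. Pitx3 at 32.2 ± 4.18, Lmx1b at 27.9 ± 4.05, Foxa2 at 24.7 ± 4.87 and En2 at 21.7 ± 0.832 RPKM each overlapped the next, and Lmx1a at 13.4 ± 0.901 and Otx2 at 4.51 ± 0.645 RPKM stood below them. The SNr order matched that of the VTA, with Nr4a2 at 57.4 ± 5.80 RPKM, Foxa1 at 35.1 ± 8.30, Pitx3 at 32.1 ± 6.53, Lmx1b at 26 ± 3.88, Foxa2 at 13.6 ± 6.08, En2 at 8.03 ± 3.90, Lmx1a at 5.60 ± 1.2 and Otx2 at 0.433 ± 0.415 RPKM. There Foxa1, Pitx3 and Lmx1b overlapped in a chain, as did Foxa2, En2 and Lmx1a.

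**Figure D1:**
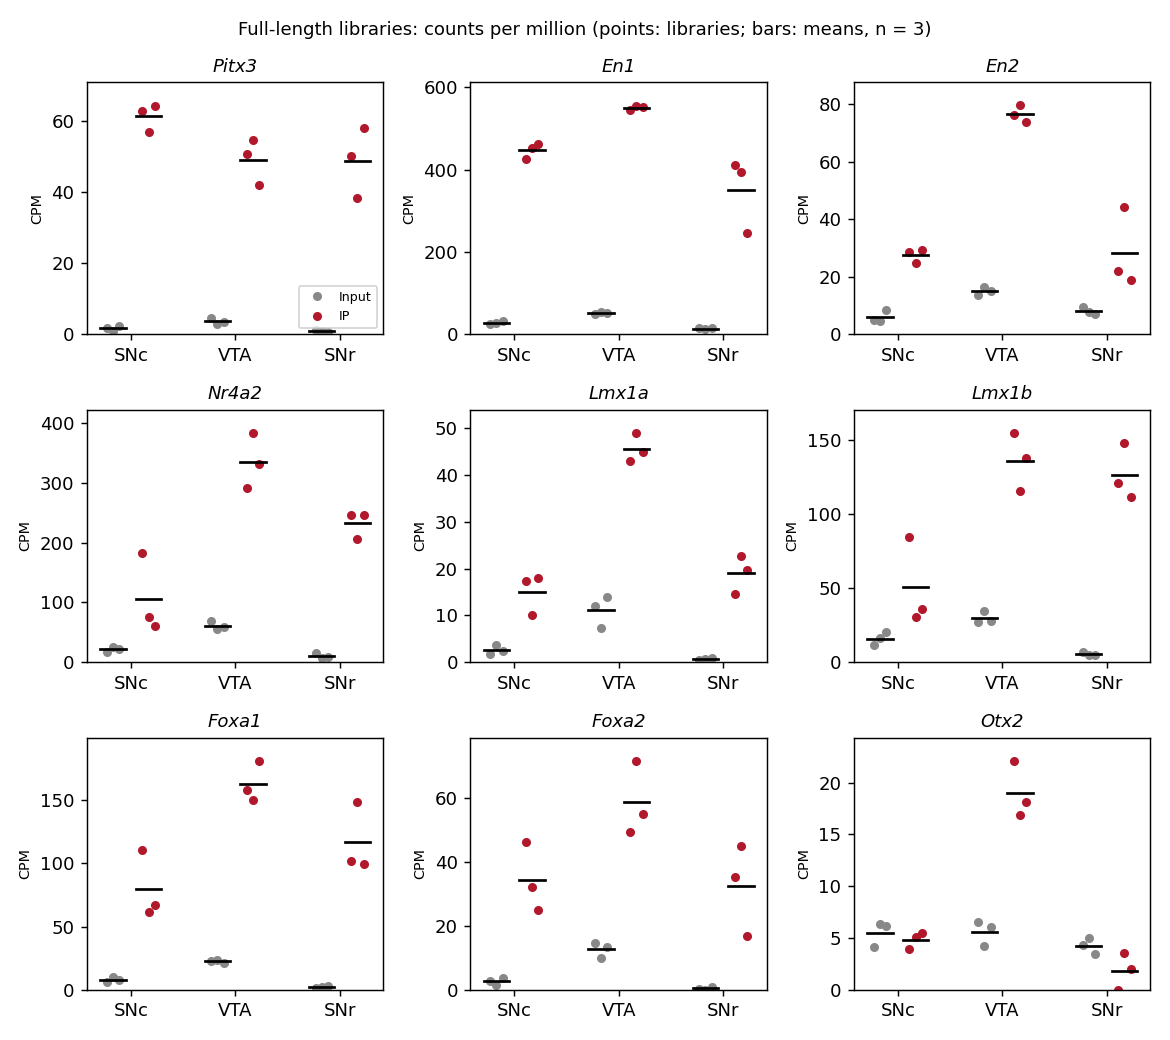
CPM of each member in the 18 full-length libraries, with Input in grey and IP in red for SNc, VTA and SNr; each point is a library and each bar the mean of n = 3. IP points lie above Input points in every region for 8 members, and for Otx2 they do so in the VTA only, where IPs are at 16.9 to 22.1 CPM.

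The IP was compared with the Input of the same region to ask whether each mRNA was above its tissue level in the IP. These libraries were all from Cre+ mice, so capture by tagged ribosomes and binding without the tag cannot be told apart here. In the SNc 8 of 9 members were higher in the IP and none was lower, where 16.8% of the 17235 genes tested were higher and 14.8% lower. The VTA had all 9 higher, against 15.5% of genes higher and 18.6% lower. In the SNr 8 were higher and Otx2 was lower, against 17.8% of genes higher and 17% lower. The median log2 fold change of the members was 2.30 in the SNc, 2.02 in the VTA and 4.22 in the SNr, where the medians of all genes were 0.08, -0.02 and 0.08. Because the tissue is a bulk sample, fewer cells of a type and less RNA per cell cannot be told apart in any of these levels, and since the labels do not name mice, p-values measure the spread between these libraries.

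The members were also compared between regions, in IPs, in Inputs and in the ratio of both. Between IPs, 6 members were higher in the VTA than in the SNc (6.32% of genes were higher), 3 differed between SNr and SNc (14.9% of genes in either direction), and 4 were lower in the SNr than in the VTA (9.33% lower). Of the genes that differed between SNr and SNc IPs, 38.4% were higher in the SNr, and 50.4% were with the size factors of DESeq2. Between Inputs, 6 members were higher in the VTA than in the SNc, where 0.139% of genes, 24 in all, were called higher. This contrast called 78 genes in either direction, and 1029 (7 members) when only the compared libraries were fitted, while leaving out SNc Input replicate 1 left 2 members called. In the SNr Input 5 members were lower than in the SNc Input (4.47% lower) and 7 were lower in the SNr than in the VTA Input (4.42% lower). The enrichment itself, the difference of IP over Input between regions, was larger in the SNr than in the SNc for 5 members (3.31% of genes) and larger in the SNr than in the VTA for 7 members (4.33%), and it was lower in the VTA than in the SNc for Pitx3 alone (4.93%). Higher enrichment in the SNr made up 45.5% of the calls against the SNc, and 56.7% with the other size factors.

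**Figure D2:**
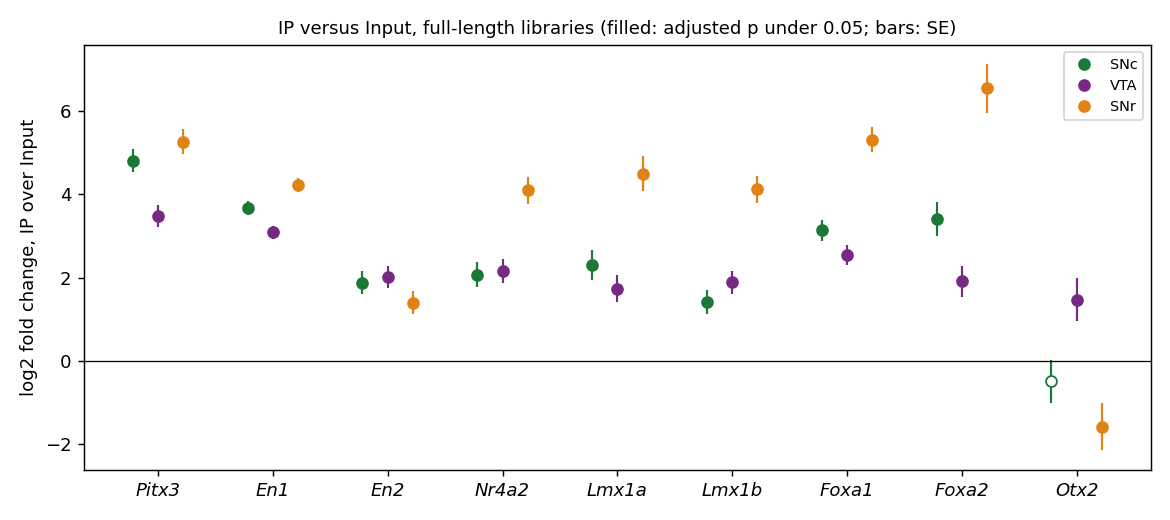
Log2 fold change of IP over Input for each member in SNc, VTA and SNr, with bars of 1 standard error from the fit; filled points passed an adjusted p of 0.05. Foxa2 in the SNr, at 6.55, is the highest point, and the open Otx2 point in the SNc, at -0.50, is the value that did not pass.

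Nr4a2 is the orphan nuclear receptor that drives Th, Slc6a3 and Slc18a2. It was at 182, 76.2 and 60.9 CPM in the SNc IPs and at 16.8, 24.4 and 22.2 CPM in the SNc Inputs. In the VTA it was at 291, 383 and 331 CPM in IPs and 68.7, 54.6 and 59.4 CPM in Inputs, and in the SNr at 246, 206 and 247 CPM in IPs and 14.8, 6.82 and 8.87 CPM in Inputs. No IP overlapped an Input of its region, and the VTA IPs were the highest, followed without overlap by the SNr IPs and then the SNc IPs, of which replicate 1 stood far above the other two. IP exceeded Input by a log2 fold change of 2.07 ± 0.30 (SE) in the SNc, 2.16 ± 0.29 in the VTA and 4.10 ± 0.33 in the SNr, a 17.1-fold difference (adjusted p = 6.01e-10). Between IPs Nr4a2 was 3.01-fold higher in the VTA than in the SNc (log2 1.59 ± 0.28, adjusted p = 0.000235) and 2.03-fold higher in the SNr than in the SNc (1.02 ± 0.28, adjusted p = 0.0145). The latter call was lost without SNc IP replicate 2 (0.80) or replicate 3 (0.73) and with only the compared libraries fitted (1.11, adjusted p = 0.066), and the value was 1.71 without SNc IP replicate 1, without which IP over Input in the SNc was 1.37. Its Input was 2.83-fold higher in the VTA than in the SNc (1.50, adjusted p = 0.0158), a call lost without SNc Input replicate 1 (1.36). Enrichment was larger in the SNr than in the SNc by 2.03 ± 0.43 on the log2 scale (adjusted p = 0.00453) and larger than in the VTA by 1.94 ± 0.42 (adjusted p = 0.00558).

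Pitx3, the paired-like homeodomain factor on which SNc neurons depend, was at 38.4 to 64.4 CPM in all 9 IPs. It was at 62.9, 56.9 and 64.4 CPM in the SNc, 50.7, 54.7 and 42.2 CPM in the VTA and 50.1, 38.4 and 58.2 CPM in the SNr IPs. Inputs were at 1.78, 0.971 and 2.32 CPM in the SNc, 4.58, 3.07 and 3.48 CPM in the VTA and 1.13, 0.880 and 0.683 CPM in the SNr. The SNc IPs lay just above the VTA IPs, SNr IPs overlapped both, and the Inputs were ordered VTA, SNc, SNr with SNc and SNr overlapping. Pitx3 was 28.1-fold higher in the IP than in the Input of the SNc (log2 4.81 ± 0.28, adjusted p = 5.18e-12), 11.2-fold in the VTA (3.48 ± 0.26, adjusted p = 1.30e-10) and 38.6-fold in the SNr (5.27 ± 0.30, adjusted p = 1.99e-12). No IP contrast between regions passed, with VTA over SNc at -0.36 ± 0.22 (adjusted p = 0.269). Its enrichment was lower in the VTA than in the SNc by a log2 value of -1.33 ± 0.36 (adjusted p = 0.0264), and this call was lost in 7 of 12 fits that left out 1 library (-1.51 to -1.08 over all 12), namely without SNc Input replicate 1 or 2, any VTA Input, SNc IP replicate 3 or VTA IP replicate 3. Enrichment in the SNr exceeded that in the VTA by 1.79 ± 0.40 (adjusted p = 0.00646), alongside an Input that was lower by -1.85 ± 0.33 (adjusted p = 0.000401).

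En1 was at 426, 452 and 462 CPM in the SNc IPs, 545, 556 and 551 CPM in the VTA IPs and 413, 396 and 247 CPM in the SNr IPs. Its Inputs held 25.5, 26.7 and 32.7 CPM in the SNc, 49.7, 53.6 and 52.1 CPM in the VTA and 15.0, 13.4 and 14.6 CPM in the SNr. The VTA was highest and the SNr lowest in both fractions without overlap, with SNr IP replicate 3 far below the others. IP over Input was 12.8-fold in the SNc, 8.53-fold in the VTA and 18.7-fold in the SNr, with log2 values of 3.68 ± 0.16, 3.09 ± 0.16 and 4.22 ± 0.17. The SNr IPs were lower than the VTA IPs by -0.69 ± 0.14 (adjusted p = 0.00103). Against the SNc IPs they were at -0.42 ± 0.14 (adjusted p = 0.0473), and that call was lost without SNc IP replicate 1 (-0.43), 2 (-0.45) or 3 (-0.41), without SNr IP replicate 3 (-0.21), and with the DESeq2 size factors (-0.35). In Inputs En1 was 1.80-fold higher in the VTA than in the SNc (log2 0.85 ± 0.15, adjusted p = 0.00619), lost without SNc Input replicate 1 (0.78), and it was lower in the SNr than in the SNc by -0.97 ± 0.16 (adjusted p = 0.000279). Enrichment was larger in the SNr than in the VTA by 1.13 ± 0.21 (adjusted p = 0.00183).

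En2, the paralog of En1, was a VTA-weighted mRNA. It was at 76.5, 79.8 and 73.9 CPM in the VTA IPs, at 28.5, 24.7 and 29.3 CPM in the SNc IPs and at 22.1, 44.3 and 18.9 CPM in the SNr IPs. The corresponding Inputs were at 13.7, 16.4 and 15.1, at 5.01, 4.86 and 8.34, and at 9.41, 7.92 and 7.05 CPM. The VTA stood above both other regions in each fraction, and SNc and SNr overlapped in each. En2 was 2.72-fold higher in VTA than in SNc IPs (log2 1.44 ± 0.26, adjusted p = 0.000286) and lower in SNr than in VTA IPs by -1.46 ± 0.26 (adjusted p = 0.000237). IP over Input was 3.66-fold in the SNc, 4.05-fold in the VTA and 2.63-fold in the SNr, so En2 was the least enriched of the 8 members higher in the SNr IP (log2 1.40, and 0.89 without SNr IP replicate 2), and none of its enrichment differences between regions passed. Its higher VTA Input (1.29 ± 0.28, adjusted p = 0.0289) was lost in 5 of 6 fits without 1 library, with values of 1.16 without SNc Input replicate 1, 1.195 without SNc Input replicate 2, and 1.37, 1.23 and 1.29 without VTA Input replicate 1, 2 or 3.

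Per length, En1 exceeded En2 in all 18 libraries. The ratio of their RPKM was 20.2 to 24.7 in the SNc IPs, 9.40 to 10.1 in the VTA IPs and 12.1 to 25.2 in the SNr IPs, and 5.29 to 7.42, 4.39 to 4.88 and 2.15 to 2.78 in the Inputs of those regions. The ratio was lower in every Input than in any IP, and the VTA IPs lay below the SNc and SNr IPs. With 3 libraries against 3 an exact permutation test cannot go below p = 0.1, so these ratios are given without a test.

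The LIM homeodomain pair Lmx1a and Lmx1b acts in the progenitors, and Lmx1b also serves other hindbrain and midbrain neurons. Lmx1a was at 17.3, 10.0 and 17.9 CPM in the SNc IPs, 42.9, 49.0 and 45 CPM in the VTA IPs and 14.6, 22.7 and 19.7 CPM in the SNr IPs. Inputs were at 1.65, 3.72 and 2.41 CPM in the SNc, 12.1, 7.23 and 14.0 CPM in the VTA and 0.523, 0.587 and 0.910 CPM in the SNr. VTA libraries were the highest in both fractions without overlap, and the SNr Inputs, with 4 to 8 reads each, lay below all others. For Lmx1a the IP over Input was 4.92-fold in the SNc (log2 2.30 ± 0.35), 3.32-fold in the VTA (1.73 ± 0.32) and 22.6-fold in the SNr (4.50 ± 0.43, adjusted p = 9.49e-09). Between IPs the VTA exceeded the SNc 2.94-fold (1.55 ± 0.32, adjusted p = 0.00107) and the SNr was lower than the VTA by -1.30 ± 0.32 (adjusted p = 0.00447). In Inputs the VTA exceeded the SNc 4.34-fold (2.12 ± 0.36, adjusted p = 0.00325), and the SNr was lower than the SNc by -1.95 ± 0.45 (adjusted p = 0.00647), a call lost without SNr Input replicate 1 (-1.79) or 2 (-1.89). Enrichment was larger in the SNr than in the SNc by 2.20 ± 0.56 (adjusted p = 0.0164), lost without SNc Input replicate 2 (1.93) or SNr Input replicate 1 (2.10) or with only the compared libraries (2.23), and larger than in the VTA by 2.77 ± 0.53 (adjusted p = 0.00211).

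Lmx1b was at 84.8, 30.7 and 36.2 CPM in the SNc IPs, 155, 116 and 138 CPM in the VTA IPs and 121, 148 and 112 CPM in the SNr IPs. Its Inputs held 11.4, 16.3 and 20.0 CPM in the SNc, 26.8, 34.3 and 27.7 CPM in the VTA and 6.97, 4.55 and 4.78 CPM in the SNr. The SNr IPs overlapped the VTA IPs and lay above all SNc IPs, whereas the SNr Inputs lay below all others, and SNc IP replicate 1 was again the highest of its group. IP over Input was 2.65-fold in the SNc (log2 1.40 ± 0.29), 3.68-fold in the VTA (1.88 ± 0.29) and 17.4-fold in the SNr (4.12 ± 0.33, adjusted p = 6.25e-10). Lmx1b was 2.58-fold higher in VTA than in SNc IPs (1.37 ± 0.28, adjusted p = 0.00104) and 2.33-fold higher in SNr than in SNc IPs (1.22 ± 0.28, adjusted p = 0.00428), calls kept in every fit without 1 library. Without SNc IP replicate 1 the latter was 1.87 and IP over Input in the SNc was 0.74. Its Input was lower in the SNr than in the SNc by -1.50 ± 0.33 (adjusted p = 0.00395), and enrichment was larger in the SNr by 2.72 ± 0.43 against the SNc (adjusted p = 0.000359) and 2.24 ± 0.42 against the VTA (adjusted p = 0.00177). The RPKM ratio of Lmx1b to Lmx1a was 3.95 to 5.76 in the SNr IPs, above 1.41 to 3.41 in the SNc IPs and 1.64 to 2.51 in the VTA IPs. In Inputs the ratio was 3.06 to 5.78 in the SNc, 1.38 to 3.30 in the VTA and 3.65 to 9.28 in the SNr, so the SNr lay above the VTA and the SNc overlapped both.

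**Figure D3:**
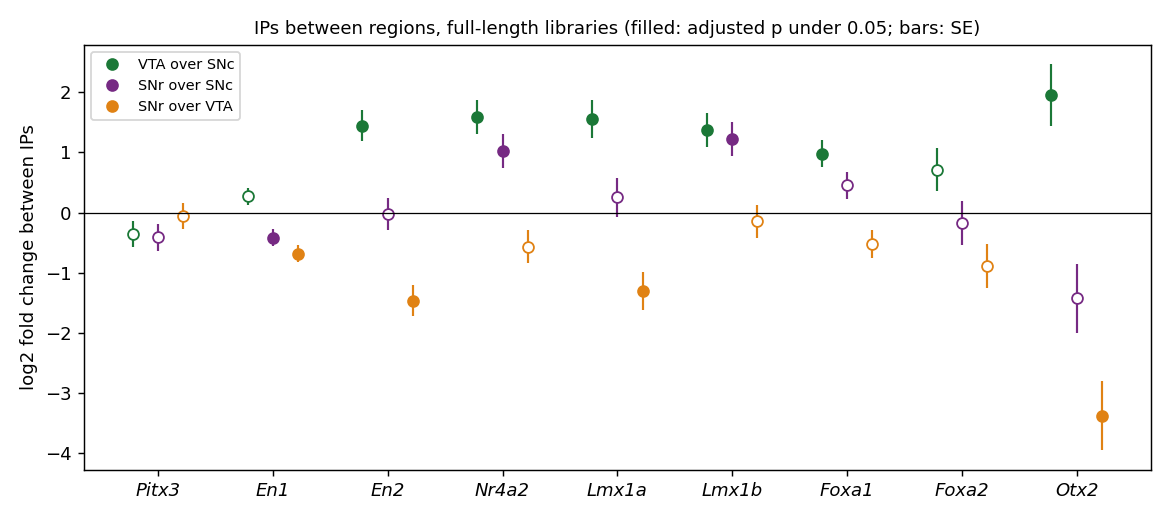
Log2 fold change between full-length IPs of 2 regions for each member (VTA over SNc, SNr over SNc, SNr over VTA), with bars of 1 standard error; filled points passed an adjusted p of 0.05. Otx2, En2 and Lmx1a lie above 0 for VTA over SNc and below 0 for SNr over VTA, Nr4a2 and Lmx1b lie above 0 against the SNc in both other regions, and Pitx3 lies between -0.41 and -0.06 throughout with no filled point.

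Foxa1 and Foxa2, forkhead pioneer factors that open chromatin at early mDA genes, were both higher in the IP than in the Input of each region. Foxa1 was at 111, 61.8 and 67.5 CPM in the SNc IPs, 158, 150 and 181 CPM in the VTA IPs and 102, 149 and 99.5 CPM in the SNr IPs. Its Inputs were at 5.71, 10.0 and 7.32 CPM, 22.6, 23.5 and 21.3 CPM, and 1.39, 2.49 and 3.19 CPM. Among Inputs no region overlapped another, with the VTA the highest and the SNr the lowest, whereas among IPs the VTA stood above both others, which overlapped. For Foxa1 the IP over Input was 8.77-fold in the SNc (log2 3.13 ± 0.26), 5.85-fold in the VTA (2.55 ± 0.24) and 39.9-fold in the SNr (5.32 ± 0.31, adjusted p = 2.18e-12). Foxa1 was 1.97-fold higher in VTA than in SNc IPs (0.98 ± 0.23, adjusted p = 0.00318), 2.95-fold higher in the VTA than in the SNc Input (adjusted p = 0.00325) and lower in the SNr than in the SNc Input by -1.73 ± 0.32 (adjusted p = 0.000865). Enrichment was larger in the SNr by 2.18 ± 0.40 against the SNc (adjusted p = 0.00118) and by 2.77 ± 0.38 against the VTA (adjusted p = 7.91e-05).

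Foxa2 was at 46.18, 32.24 and 24.96 CPM in the SNc IPs, 49.4, 71.5 and 54.8 CPM in the VTA IPs and 35.23, 45.02 and 16.67 CPM in the SNr IPs. The Inputs held 2.601, 1.456 and 3.615 CPM in the SNc, 14.7, 9.92 and 13.5 CPM in the VTA and 0.261, 0 and 0.910 CPM in the SNr, where only 7 reads were counted in all. VTA IPs lay above the SNc and SNr IPs, which overlapped, and the Inputs did not overlap between any regions. IP over Input was 10.6-fold in the SNc (log2 3.41 ± 0.42), 3.75-fold in the VTA (1.91 ± 0.37) and 93.9-fold in the SNr (6.55 ± 0.59, adjusted p = 3.48e-09), the last resting on those 7 reads. No IP contrast between regions passed: VTA over SNc was 0.71 ± 0.35 (adjusted p = 0.170) and SNr over VTA was -0.89 ± 0.36 (adjusted p = 0.0746). The VTA Input was 4.64-fold higher than the SNc Input (2.21 ± 0.42, adjusted p = 0.00888), lost without SNc Input replicate 1 (2.21) or 2 (2.01), and the SNr Input was lower than the SNc Input by -3.32 ± 0.67 (adjusted p = 0.00180). Enrichment was larger in the SNr by 3.14 ± 0.77 against the SNc (adjusted p = 0.0137), lost without SNr Input replicate 2 (2.34) or with only the compared libraries (3.12, adjusted p = 0.0522), and by 4.65 ± 0.73 against the VTA (adjusted p = 0.000291). Foxa1 exceeded Foxa2 per length in all 9 IPs, with RPKM ratios of 1.37 to 1.93 in the SNc, 1.50 to 2.36 in the VTA and 2.07 to 4.25 in the SNr.

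**Figure D4:**
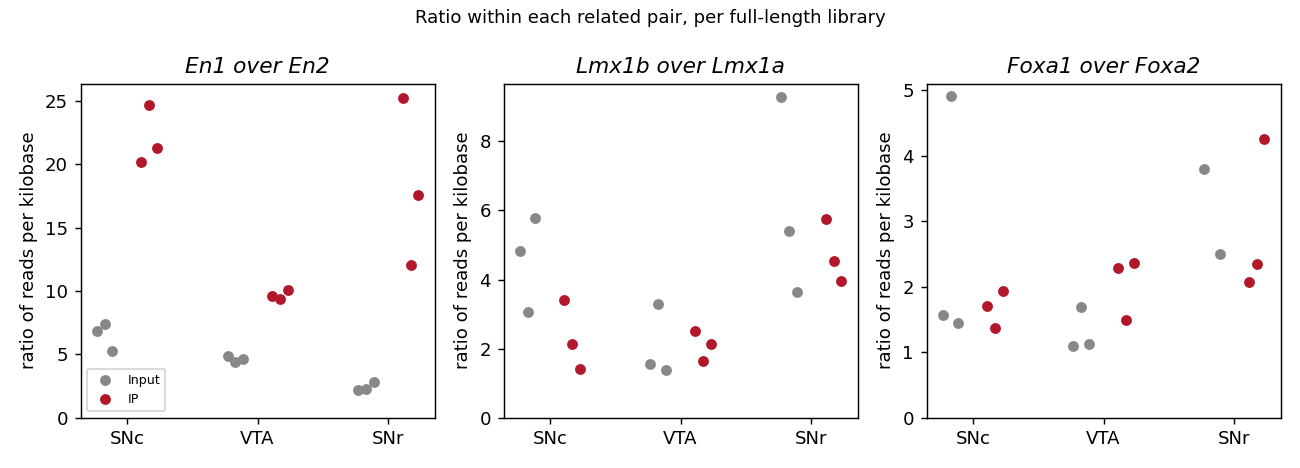
RPKM ratio of En1 to En2, Lmx1b to Lmx1a and Foxa1 to Foxa2 in each full-length library by region, with Input in grey and IP in red, on linear axes from 0; the SNr Input with no Foxa2 read has no Foxa1 to Foxa2 point. En1 to En2 is 9.40 to 25.2 in IPs and 2.15 to 7.42 in Inputs, and Lmx1b to Lmx1a is highest among IPs in the SNr, at 3.95 to 5.76.

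Otx2, the bicoid-type homeodomain factor that positions the midbrain, was the exception among the members. It was at 22.1, 16.9 and 18.1 CPM in the VTA IPs, at 3.93, 5.07 and 5.51 CPM in the SNc IPs and at 0, 3.49 and 1.99 CPM in the SNr IPs. Its Inputs were at 6.54, 4.22 and 6.08 CPM in the VTA, 4.12, 6.31 and 6.12 CPM in the SNc and 4.36, 4.99 and 3.41 CPM in the SNr. The IPs of the 3 regions did not overlap one another, whereas the Inputs overlapped. Between IPs the VTA was 3.87-fold higher than the SNc (log2 1.95 ± 0.52, adjusted p = 0.00921) and the SNr was lower than the VTA by -3.37 ± 0.58 (adjusted p = 0.000138). IP over Input was 1.47 ± 0.51 in the VTA (adjusted p = 0.0273), and this call was lost without VTA Input replicate 1 (1.61), 2 (1.35) or 3 (1.62) and without VTA IP replicate 1 (1.33) or 3 (1.51). In the SNr the IP was lower than the Input by -1.59 ± 0.57 (adjusted p = 0.0342), a call lost without SNr Input replicate 1 (-1.54) or 2 (-1.40), without SNr IP replicate 1 (-1.06), and when only the SNr libraries were fitted (-1.56). Without SNr IP replicate 2 it was -2.54. In the SNc the value was -0.50 ± 0.51 (adjusted p = 0.504). Enrichment was lower in the SNr than in the VTA by -3.06 ± 0.77 (adjusted p = 0.0159), lost without VTA Input replicate 2 (-2.90).

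Otx2 is also expressed in choroid plexus, so the markers of other cells were set beside these values. The summed level of 6 choroid and ependymal genes was 2.90 to 5.23 CPM in the VTA IPs, 9.60 to 20.7 CPM in the SNc IPs and 16.7 to 34.3 CPM in the SNr IPs. The part of such cells in the Otx2 values was not tested. Oligodendrocyte genes summed to 450 to 689 CPM in the VTA IPs, 2064 to 3303 CPM in the SNc IPs and 2160 to 2629 CPM in the SNr IPs. The GABA neuron list summed to 139 to 211 CPM in the VTA, 760 to 1209 CPM in the SNc and 529 to 826 CPM in the SNr. The dopamine neuron list was at 23550 to 24720, 16020 to 21170 and 18090 to 24190 CPM in that order of regions. Endothelial genes summed to 9.12 to 37 CPM in the VTA, 30.7 to 80.1 CPM in the SNc and 137 to 171 CPM in the SNr IPs, and in the SNr 2 of 5, Ly6c1 (log2 1.83) and Cldn5 (1.37), were higher in the IP than in the Input. Microglial genes summed to 13.9 to 16.9, 58.5 to 117 and 103 to 154 CPM in the IPs in that order, and all 6 were higher in SNr than in VTA IPs. The part of these differences in the members' contrasts between IPs was not tested.

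Several known targets of these factors were in the list of dopamine neuron genes. Of 17 fixed dopamine neuron genes, 15 were higher in the SNc IP, 16 in the VTA IP and 16 in the SNr IP, none was lower, and their median log2 fold changes were 3.23, 3.05 and 5.03. Those with the smallest p were Aldh1a1 (3.08 in the SNc, 3.05 in the VTA and 4.10 in the SNr), an enzyme of retinaldehyde metabolism, Slc18a2 (3.598, 3.205 and 5.108), the vesicular monoamine transporter, and Sncg (4.58 in the SNc and 5.04 in the SNr), the gamma-synuclein gene. Enrichment was larger in the SNr than in the SNc for 12 of the 17, including Ret, a GDNF receptor subunit, by 2.12 ± 0.26. In Inputs 13 of the 17 were lower in the SNr than in the SNc and 1 was higher in the VTA than in the SNc, where 6 of 9 members were.

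Cofactors and other transcription factors of mDA neurons moved both ways. Of 17 such genes, 7 were higher and 4 lower in the SNc IP, 8 and 4 in the VTA IP, and 8 and 6 in the SNr IP, with medians of 0.38, 0.53 and 0.45. Pbx3, a TALE homeodomain cofactor, was higher in each region (1.39, 1.69 and 1.55), and so was Lmo3, a LIM-only cofactor, in the SNc (1.50) and the VTA (1.89). In the SNr the smallest p belonged to Satb1 (2.79 ± 0.23), a chromatin organizer, and Ebf3 (3.67 ± 0.33) came next. Zeb2, a zinc finger repressor also found in glia, was lower in the SNc (-1.47) and the VTA (-3.21). Of 9 paralogs of the members from families other than mDA determinants, 7 passed the filter, and none was higher in the SNc or SNr IP. In the VTA Otx1, the paralog of Otx2, was higher (1.68 ± 0.40, adjusted p = 0.00164), and 4 were lower, including Lhx1 and Lhx5.

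The genes whose log2 CPM followed each member most closely over the 18 full-length libraries were given by Pearson's r. These libraries include both IPs and Inputs, and the part of that split in r was not tested. For Nr4a2 the closest gene of all was another member, Lmx1b, at r = 0.982, followed by Ntn1 at 0.980 and Trpc6 at 0.980. Lmx1b had Fam167a at 0.985, Rnd1 at 0.982 and Nr4a2. Foxa1 was among the 3 closest genes to Lmx1a, at 0.966, between Zcchc12 at 0.970 and Ebf3 at 0.958. Foxa1 and Foxa2 shared the nicotinic subunit gene Chrna5, at 0.981 and 0.974, and their other closest genes were Amph and Ntsr1 for Foxa1 and Gch1 and AW551984 for Foxa2. Pitx3 had Spats2l, Pgk1 and Hspa8 (0.990, 0.988 and 0.985), En1 had Uchl1, Zwint and Tagln3 (0.996, 0.994 and 0.993) and En2 had Oprk1, Ece1 and Maoa (0.988, 0.964 and 0.957). Otx2 was least tied to any gene, with A530017D24Rik at 0.910, Tvp23a at 0.870 and Syt10 at 0.863, and its r with the other members was -0.02 to 0.32.

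In the UMI libraries the control was the IP from Cre- mice, in which no ribosome was tagged. En1 was the clearest case. Its counts in Cre+ IPs were 4, 29, 24 and 33 UMIs in the SNc, 20, 22, 20 and 35 in the VTA and 6, 14, 9 and 19 in the SNr. In Cre- IPs a single UMI was counted in the SNc, 5 in the VTA and 1 in the SNr over 6 libraries each. Every Cre+ IP lay above every Cre- IP of its region, with medians of 406, 492.6 and 224 CPM (UMIs scaled to the library total) in Cre+ mice. En1 was higher in Cre+ than in Cre- IPs by a log2 fold change of 5.85 ± 0.65 in the SNc (adjusted p = 1.64e-16), 4.27 ± 0.49 in the VTA (adjusted p = 1.31e-15) and 4.74 ± 0.79 in the SNr (adjusted p = 2.81e-07).

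Beside En1, Pitx3 passed in the SNc, Lmx1b in the VTA and Nr4a2 in the SNr, so that 2 members were called in each region, where 1.68%, 2.05% and 1.01% of the 14670 genes tested were higher. Pitx3 was counted at 2, 5, 2 and 6 UMIs in the SNc Cre+ IPs and at 1 UMI over the 6 Cre- IPs (log2 3.31 ± 0.99, adjusted p = 0.0245), a call lost without Cre+ IP replicate 2 (3.21) or 4 (3.32). It was at 1, 6, 3 and 2 UMIs in the VTA and 1, 11, 1 and 6 in the SNr, against 2 UMIs in the Cre- IPs of each. These contrasts, 2.43 ± 0.93 in the VTA (adjusted p = 0.111) and 2.59 ± 0.89 in the SNr (adjusted p = 0.0789), did not pass. The SNr contrast passed with TMMwsp scaling (3.02, adjusted p = 0.0174), with total UMIs (2.94, adjusted p = 0.0245) and without SNr Cre+ IP replicate 3 (2.88, adjusted p = 0.0433). Lmx1b was at 1, 2, 0 and 4 UMIs in the VTA Cre+ IPs and at 0 in all 6 Cre- IPs (adjusted p = 0.0446). Without Cre+ IP replicate 1, 2 or 4 its adjusted p was 0.0546, 0.0702 and 0.198, and it was 0.0513 with only IPs in the fit.

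Nr4a2 differed from En1 in its background. Cre+ IPs held 4, 3, 6 and 7 UMIs in the SNc, 6, 14, 12 and 13 in the VTA and 6, 18, 11 and 17 in the SNr, and Cre- IPs held 4, 3, 1, 3, 0 and 1, then 6, 8, 1, 2, 1 and 4, then 0, 0, 0, 1, 0 and 1. The medians were 99.0, 211 and 256 CPM in Cre+ and 37.4, 82.5 and 0 in Cre- mice. The genotypes overlapped in the SNc but not in the VTA or the SNr, and Cre- IPs of the SNc and the VTA carried Nr4a2 where those of the SNr nearly lacked it. In the SNr Nr4a2 was 16.3-fold higher in Cre+ IPs (log2 4.03 ± 0.70, adjusted p = 1.16e-06). The values were 0.65 ± 0.56 in the SNc (adjusted p = 0.521) and 1.12 ± 0.43 in the VTA (adjusted p = 0.111). The difference between the SNr and SNc effects, a contrast added after the data were seen, was 3.38 ± 1.01 and did not pass (adjusted p = 0.222).

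**Figure D5:**
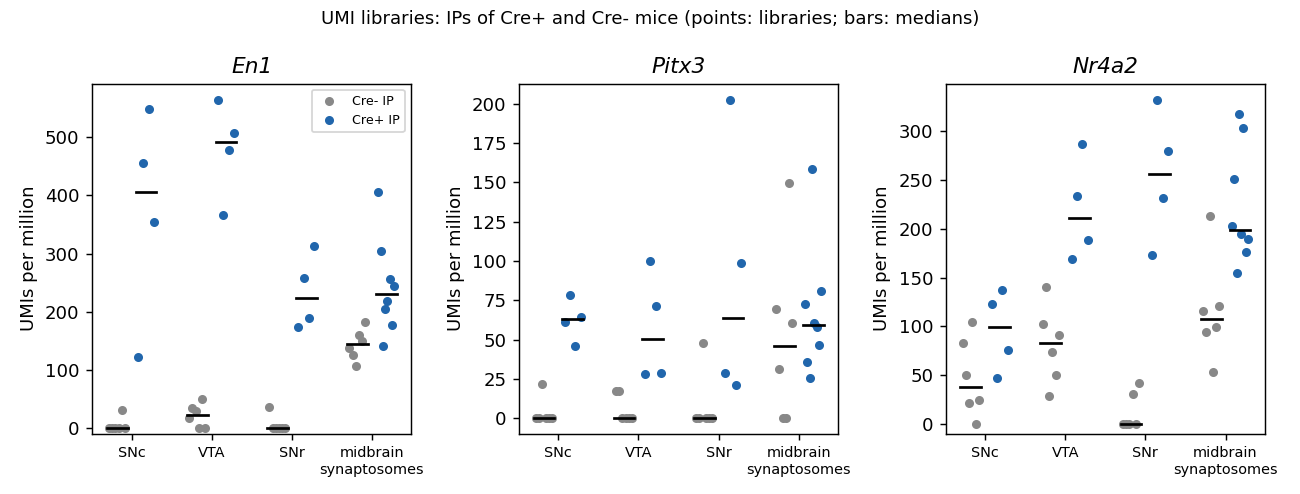
CPM of En1, Pitx3 and Nr4a2 (UMIs scaled to the library total) in IPs from Cre- (grey) and Cre+ (blue) mice, for SNc, VTA, SNr and midbrain synaptosomes; each point is a library and each bar a median. En1 is at 0 to 50.5 in regional Cre- IPs and at 123 to 564 in Cre+ IPs, whereas in synaptosome IPs both genotypes carry En1, at 107 to 182 in Cre- and 141 to 406 in Cre+ mice. The synaptosome libraries were on another plate than the regional ones.

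Pooled over the 3 regions in 1 contrast, 5 members were higher in Cre+ IPs (4.51% of genes) and Otx2 was lower (12.5% of genes). The log2 fold change was 4.95 ± 0.37 for En1, 2.78 ± 0.54 for Pitx3, 2.57 ± 0.60 for Foxa1 and 1.93 ± 0.35 for Nr4a2. Lmx1b (1.79, adjusted p = 0.080), Lmx1a (1.67, adjusted p = 0.168) and En2 (-0.07, adjusted p = 0.735) were not called. In SNc, VTA and SNr, En2 was counted at 0, 6 and 2 UMIs in Cre+ and 1, 3 and 1 in Cre- IPs. Lmx1a was counted at 1, 5 and 1 UMIs in Cre+ and 0, 0 and 1 in Cre- IPs. Foxa1 was counted at 8, 13 and 11 UMIs in Cre+ IPs of SNc, VTA and SNr against 1, 2 and 1 in Cre- IPs. Foxa2, at 2, 10 and 6 UMIs against 0, 1 and 0, was called with an adjusted p of 0.00370, and not without SNc Cre+ IP replicate 4, the library holding both SNc UMIs. Its UMIs in Cre- IPs and in all Inputs together were below the minimum of 10 needed for testing. Foxa2 therefore entered the test only through the Cre+ IPs, the group in which it was high, and this limits its place among the 5 members. Otx2 was counted at 1, 0 and 0 UMIs in Cre+ IPs and at 5, 4 and 1 in Cre- IPs (adjusted p = 0.0380), so the VTA IPs that carried it in full-length libraries held none here, which allows up to 3 UMIs over the group. That call was lost without SNc IP Cre+ replicate 2, VTA IP Cre+ replicate 2 or 4 or SNr IP Cre+ replicate 4 (adjusted p of 0.0508, 0.0533, 0.0557 and 0.0544), and with TMMwsp scaling (0.0727) or total UMIs (0.0620). Among SNc IPs the choroid and ependymal genes summed to at most 78.7 CPM with Cre, whereas the highest Cre- library reached 3860 CPM. Of these genes Ttr was lower in Cre+ IPs of the SNc (log2 -4.52, adjusted p = 2.82e-27). Its IP over Input differed between the genotypes by only -0.54 there and was not called (adjusted p = 0.794), so the IP difference cannot be told apart from one between the tissues. Between the same SNc IPs Folr1 was at 1.66 and Clic6 and Foxj1 at -2.43, none of them called. In the VTA and the SNr Ttr was at 0.57 and 0.10 and was not called, while Folr1 was lower in the SNr (-4.82, adjusted p = 0.0207). The part of these genes' cells in the Otx2 counts was not tested. Of 15 dopamine neuron genes tested, 13 were higher in Cre+ IPs, with Dlk1 (3.93 ± 0.17), Th (2.97 ± 0.15) and Slc6a3 (3.35 ± 0.18) the strongest by p. The median over all genes was -0.41, and it was -0.42, -0.23 and -0.35 in the SNc, VTA and SNr, where TMMwsp gave -0.12 and then -0.06, -0.09 and 0.03. The share of calls that were higher was 26.5% pooled and 33.5%, 39.1% and 27.8% by region, against 54.6%, 72.6%, 50.2% and 74.1% with TMMwsp.

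The genotype:fraction interaction asked whether IP over Input differed between Cre+ and Cre- mice, and En1 was the member that passed it in each region. Its values were 6.37 ± 0.91 in the SNc, 4.59 ± 0.75 in the VTA and 6.77 ± 1.31 in the SNr (adjusted p = 2.04e-09, 2.92e-07 and 6.37e-05), where 0.716%, 1.04% and 0.518% of genes were higher. En1 Inputs held 1 to 4 UMIs each in the SNc of Cre+ mice, and the SNr value rested on 1 UMI over the 4 Cre+ Inputs and 1 UMI over the 6 Cre- IPs. Nr4a2 in the SNr, at 3.49 ± 1.36, did not pass (adjusted p = 0.221), and Pitx3 in the SNc was at 2.51 ± 1.54 (adjusted p = 0.489). For Nr4a2 the value was 0.62 ± 0.87 in the SNc (adjusted p = 0.825) and 1.09 ± 0.71 in the VTA (adjusted p = 0.496). Mean Nr4a2 levels in Cre- IPs of SNc and VTA were 47.2 and 81.2 CPM, against 15.0 and 37.7 CPM in the Cre- Inputs. The share of calls that were higher was 45.1%, 40.7% and 30.8%, against 78.8%, 28.7% and 87.9% with TMMwsp.

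Between regions the Cre+ UMI IPs called none of the 9 members in contrasts added after the data were seen. The background was 0.518% of genes for VTA against SNc, 0.3% for SNr against SNc, 0.654% for SNr against VTA and 0.13% for the difference of the Cre effects. Unadjusted p-values under 0.05 belonged to Nr4a2, Foxa2 and En2 in VTA against SNc, to Nr4a2 in SNr against SNc, to En1 in SNr against VTA and to Nr4a2 in the difference of effects, and DESeq2 called 0 members in each. Nr4a2 was at 1.43 ± 0.45 for VTA over SNc (adjusted p = 0.146) and 1.598 ± 0.44 for SNr over SNc (adjusted p = 0.0658), and En1 was at -1.08 ± 0.34 for SNr over VTA (adjusted p = 0.140). The share of calls that were higher was 47.4%, 68.2%, 58.3% and 68.4% in these 4 contrasts, and 22.4%, 54.8% and 71.2% in the 3 region contrasts with TMMwsp and 80% in the difference of effects with total UMIs.

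In midbrain synaptosomes the same comparison of Cre+ with Cre- IPs called 0 of the 7 members tested, where 1.11% of 8718 genes were called in either direction. Unadjusted p-values were under 0.05 for Nr4a2, En2 and En1, and DESeq2 called 0. Nr4a2 was at 154, 199 and 317 CPM (lowest, median and highest of 8) in Cre+ and 53.3, 108 and 213 (of 6) in Cre- IPs. The ranges overlapped, and the log2 fold change was 0.94 ± 0.33 (adjusted p = 0.217). En1 was at 141, 231 and 406 CPM in Cre+ and 107, 144 and 182 in Cre- IPs, again overlapping, with 0.76 ± 0.30 (adjusted p = 0.302). En2 was counted in each of the 8 Cre+ IPs, at 3, 1, 2, 2, 3, 2, 3 and 2 UMIs, and in none of the 6 Cre- IPs, which were shallower (adjusted p = 0.217).

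The genotypes also overlapped for the remaining members tested. Pitx3 was at 25.7, 59.5 and 159 CPM in Cre+ and 0, 46.0 and 149 in Cre- IPs (0.19 ± 0.59, adjusted p = 0.947). Foxa1 was at 27.1, 57.6 and 145 against 0, 40.6 and 121 CPM (0.72 ± 0.58, adjusted p = 0.690). Foxa2 was counted at 17 UMIs in 8 Cre+ IPs and 1 UMI in 6 Cre- IPs (1.72 ± 1.04, adjusted p = 0.542), and Lmx1b at 12 and 2 UMIs (0.50 ± 1.00, adjusted p = 0.893). Lmx1a, at 3 and 0 UMIs, and Otx2, at 0 and 1, were too low to test.

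Cre- synaptosome IPs also carried other dopaminergic mRNAs. Th was at 1970 to 4476 CPM in Cre+ and 1857 to 3508 in Cre- synaptosome IPs, whereas in the regional Cre- IPs it was at 20.96 to 683. Regional and synaptosome libraries were on different plates, so preparation and plate cannot be told apart in this comparison. Slc6a3, the dopamine transporter, did separate the genotypes, at 567 to 1292 against 182 to 472 CPM (1.59 ± 0.24, adjusted p = 0.000431). It was among 5 of 16 dopamine neuron genes called higher, with Dlk1 (1.38 ± 0.21) and Ret (1.27 ± 0.28). Oligodendrocyte markers summed to 1092 to 2510 CPM in Cre+ and 3894 to 5180 in Cre- IPs, and their part in the members' values was not tested.

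With the synaptosome Inputs included, the genotype:fraction interaction called 0 of 7 members, where 1.03% of 12960 genes were called, with unadjusted p-values under 0.05 for Nr4a2, En2 and En1 and 0 calls by DESeq2. The values were 1.06 ± 0.46 for En1 (adjusted p = 0.380) and 1.10 ± 0.49 for Nr4a2 (adjusted p = 0.396). In Inputs En1 had a median of 63.9 CPM in Cre+ and 56.7 in Cre- mice, and Nr4a2 59.7 and 57.2, so the IP median of both members was above the Input median in either genotype, although the lowest Cre- IP for Nr4a2 was at 53.3 CPM. The Inputs, 16 and 12 libraries, outnumber the IPs and are not tied to mice by the labels, so p-values of this test may be too small. The share of calls that were higher was 28.9% for the IPs and 35.8% for the interaction, against 72.2% and 70.3% with TMMwsp.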

How the data were processed

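The authors deposited 2 tables of counts. For the UMI table the authors trimmed poly(A) from 3′ tags, aligned reads to GRCm38 with GENCODE vM10 using STAR, and collapsed UMIs, and the deposited counts are UMIs per gene. For the full-length table (SMARTer stranded total RNA) they removed the first 15 bases of read 2 and ribosomal RNA reads, aligned with STAR 2.6.7a to GRCm38.p6 with GENCODE M25 and counted reads with featureCounts 1.6. CPM and RPKM (exon lengths of GENCODE vM21, which also gave gene coordinates) were computed here from those counts.

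Tests were edgeR (4.0.16, R 4.3.3) quasi-likelihood fits over all genes with Benjamini-Hochberg adjustment and a threshold of 0.05. Full-length counts used filterByExpr, TMM and 1 coefficient per region and fraction over 18 libraries (17235 genes). UMI counts used DESeq2 (1.42.0) size factors and at least 10 UMIs, over 60 regional libraries (14670 genes), 14 synaptosome IPs (8718 genes) or 42 synaptosome IPs and Inputs (12960 genes). The SE was taken from the F statistic as |log2 fold change|/√F and is not given where a group had 0 counts. The alternatives were DESeq2 tests, other size factors, looser filters, fits to fewer libraries, and leaving out each library in turn. The scripts were tested on simulated data.

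All 9 members were tested in every comparison in which they passed the filter, though the text does not give every value. From each other list up to 4 genes of smallest p were named, and for each member the 3 genes with the highest correlation. Members and lists were chosen with earlier results of these data known. Replicate numbers follow accession order. From the UMI counts, 5 transgene rows (0.000205% of counts) were left out. Intervals and floors of counts cover counting error only, and at 17831 to 92936 UMIs in a regional IP 1 UMI is a large step for a rare mRNA.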

Additional observations from a re-analysis of the deposited data

Results flagged for a closer look

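Among 31 pairs of a member and a group with at least 10 counts, 3 libraries stood apart from the rest of their group by a test of the gap against the range. By chance this test flags about 1 in 20 groups of normally distributed values, a rate that may not hold for counts this low. En1 was at 193.8 CPM in the SNc Input of Cre- replicate 2, from 6 UMIs, where the nearest library was at 70.46. Foxa2 was at 0 in the VTA IP of Cre+ replicate 3, where the nearest library was at 56.41. Pitx3 was at 158.6 CPM in the midbrain synaptosome IP of Cre+ replicate 4, from 7 UMIs, where the nearest was at 81.15.

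IP enrichment differed between regions for 8 members by the test of the difference itself. Against the SNc it was larger in the SNr for Nr4a2 (2.03 on the log2 scale), Lmx1a (2.20), Lmx1b (2.72), Foxa1 (2.18) and Foxa2 (3.14). The share of all genes was 3.31%. Enrichment was lower in the VTA than in the SNc for Pitx3 (-1.33), where 4.93% of genes were lower. Against the VTA it was larger in the SNr for Pitx3 (1.79), En1 (1.13), Nr4a2 (1.94), Lmx1a (2.77), Lmx1b (2.24), Foxa1 (2.77) and Foxa2 (4.65), where 4.33% of genes were larger. There it was lower for Otx2 (-3.06). Of these calls, those of Lmx1a and Foxa2 against the SNc, of Pitx3 in the VTA and of Otx2 were lost in at least 1 fit without 1 library.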

How the results depend on the processing

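Outside the fits that left out a library, 574 of 614 member fold changes kept their direction and side of the threshold, 14 lost a call, 19 gained one and 7 reversed. The reversals were En2 in SNr over SNc IPs, at 0.055 with DESeq2 size factors, 0.054 with the DESeq2 Wald test, 0.030 with at least 1 read and 0.051 with only the libraries compared, and Pitx3 in SNr over VTA IPs, at 0.028 with DESeq2 size factors, 0.028 with the Wald test and 0.0046 with only the libraries compared. None of these was called, and the cause was not tested. Fits of only the libraries compared estimated the spread from fewer samples and from those groups alone. Genes called fell between IPs, to 2003 from 3155 for VTA against SNc, 373 from 2570 for SNr against SNc (members 1) and 1466 from 4188 for SNr against VTA. Between Inputs they rose, to 1029 from 78, 4296 from 1197 and 4387 from 1339 for the same contrasts. For enrichment they were 639 from 1254 for SNr against SNc (members 3) and 1747 from 1159 for VTA against SNc (members 4). The cause of these shifts was not tested. The Wald test gave 156 genes for VTA against SNc Inputs, 1558 for enrichment SNr against VTA and 2 members for enrichment VTA against SNc. With at least 1 read, 149 genes were called for VTA against SNc Inputs and 7 members for SNr against VTA IPs. In UMI data the likelihood ratio test called 1 member in the SNc, 1 in the VTA and 3 over the 3 regions, 356 genes for the SNc interaction and 30 for the difference of the SNr and SNc effects. At least 1 UMI gave 1 member in the VTA, 144 genes for the SNc interaction and 253 for synaptosome IPs. Only IPs in the fit gave 1 member in the VTA, and all 42 synaptosome libraries gave 254 genes. The 4 contrasts of Cre+ UMI IPs and of Cre effects between regions, with their alternatives, were chosen after seeing the data.

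Leaving out 1 library kept 1011 member values on the same side, lost 46 calls, gained 11 and reversed 22. Members called ranged over 1 to 4 for SNr against SNc IPs, 2 to 6 for VTA against SNc Inputs, 0 to 2 for enrichment VTA against SNc, 1 to 2 for SNc UMI IPs, 1 to 3 for VTA UMI IPs, 1 to 2 for the VTA interaction and 0 to 1 for Cre+ UMI IPs SNr against SNc. Genes called ranged over 2016 to 4191 for VTA against SNc IPs, 2778 to 5046 for SNr against VTA IPs, 30 to 74, 743 to 834 and 814 to 939 for the Inputs VTA against SNc, SNr against SNc and SNr against VTA, and 713 to 2019, 722 to 2270 and 674 to 1431 for enrichment SNr against SNc, VTA against SNc and SNr against VTA. The counts 2019 and 2270 came without SNc IP replicate 1. For UMIs the ranges were 433 to 670 (SNc IPs), 309 to 485 (SNr IPs), 250 to 336 and 149 to 247 (VTA and SNr interactions), and 31 to 121, 27 to 49 and 52 to 102 (Cre+ IPs VTA against SNc, SNr against SNc, SNr against VTA). Reversed values ranged over -0.52 to 0.21 for En2, -0.00073 to 0.39 for Lmx1a and -0.51 to 0.14 for Foxa2 in SNr over SNc IPs, -0.19 to 0.072 for Pitx3 in SNr over VTA IPs, -0.185 to 0.17 for Otx2 in VTA over SNc Inputs, -0.084 to 0.34 for En2 and -0.19 to 0.79 for Nr4a2 in enrichment VTA against SNc, and for Pitx3 in Cre+ UMI IPs -0.42 to 0.32, -0.18 to 0.89 and -0.17 to 1.01 for VTA against SNc, SNr against SNc and SNr against VTA. No paired analysis was possible because the labels carry no replicate numbers or mouse names that tie an IP to an Input or one region to another.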

Other observations

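Outside the midbrain most members were rare, with Nr4a2 the most counted in the striatum and Pitx3 in striatal synaptosomes. Over 194 striatal libraries of all ages Nr4a2 was counted at 838 UMIs, with 66.9 CPM (UMIs scaled to the summed total) in Cre- and 78.4 in Cre+ IPs and 35.6 in Cre- and 28.2 in Cre+ Inputs. Each other member was counted at 21 UMIs or fewer in the striatum, with 21 for Otx2, 12 for Pitx3 and 8 for En1. In 68 striatal synaptosome libraries Pitx3 was counted at 22 UMIs (10.5 CPM), against 15 for Nr4a2 (7.19 CPM). These pool RiboTag IPs and Inputs with sorted particles of DAT-EGFP and VGlut1-VENUS mice. Among the RiboTag libraries Pitx3 was found in 3 of 4 Cre- and 2 of 4 Cre+ synaptosome IPs and in 6 of 12 Cre- and 3 of 12 Cre+ Inputs. In that order it was counted at 6, 3, 7 and 3 UMIs, and its highest levels were 73.16, 87.15, 157 and 66.17 CPM. These overlapped the midbrain synaptosome Inputs, at 0 to 86.05 CPM in Cre- and 0 to 106.3 CPM in Cre+ mice. In 12 cortical synaptosome libraries, all of VGlut1-VENUS mice, Nr4a2 was counted at 8 UMIs. The other members were at 0, which allows up to 6.06 CPM each.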
